A study of Mus musculus with 12 samples.

Results

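Cells build cholesterol from acetyl-CoA through the mevalonate pathway, squalene and a series of sterols, and build fatty acids from the same precursor through malonyl-CoA, elongation and desaturation. The 29 mouse genes described here encode 18 enzymes of the cholesterol route, 5 enzymes of fatty acid synthesis, 5 proteins that sense sterols or switch these genes on, and 1 sterol carrier. They were chosen by gene symbol as a pathway module, though with earlier results of these data known. All 29 were found among the 38594 Ensembl gene rows of the table, and all 29 were among the 25809 genes that passed the filter on low values.

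The libraries came from lumbar dorsal root ganglia (DRG, levels L1 to L6), which hold the cell bodies of sensory neurons with their satellite glia and myelinating Schwann cells. All donors were male C57BL6J mice aged 6 to 12 weeks with no treatment named, taken at zeitgeber time (ZT) 2, 8, 14 or 20 h, where ZT0 is by convention the time of lights on. Each time had 3 libraries of poly(A) RNA. The labels do not say whether the libraries of a time came from separate animals, so p-values describe variation among these libraries alone, whose source may be technical. No other genotype or agent is named, and the ganglia were sequenced whole, so fewer cells of a type and less RNA per cell cannot be told apart.

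In vertebrate cells, SREBP transcription factors (encoded by Srebf1 and Srebf2) are held in the endoplasmic reticulum by SCAP and the INSIG proteins while sterols are plentiful. When sterols fall, SCAP carries them to the Golgi, where they are cleaved, and the released part enters the nucleus and switches on most genes of the route, usually beside NF-Y bound at CCAAT sequences. In liver this programme follows feeding and the clock. In peripheral nerve it is best known for the lipid supply of myelin made by Schwann cells.

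Promoter sequences from RefSeq (GRCm38.p6, from 250 bases before to 50 bases after the annotated start) were matched for 23 of the 29 genes and searched on both strands. A gene had 1 to 3 promoters here and was counted if any of them matched. The sterol regulatory element TCACNCCAC was present for 1 of the 23 genes, Hmgcs1, against 1.44% of 27025 genes. The NF-Y letters CCAAT occurred in 19 of the 23 (82.6%), against 41.1% of all genes. The E-box CACGTG, the sequence that CLOCK and BMAL1 recognise, occurred in 5 (Hsd17b7, Sc5d, Dhcr7, Scap and Insig1; 21.7%), against 8.09% of all genes. Each motif was counted on its own even where matches of different motifs overlap, and a match describes these letters only. The stretches below lie before the RefSeq start site and were picked to show how the motifs sit. For Tm7sf2 that start lies inside the longer gene extent given with its values, so its stretch does too. Hmgcs1 holds the sterol element among CCAAT sequences, Insig1 holds CCAAT and an E-box, and Tm7sf2 and Nsdhl are late-pathway enzymes with CCAAT alone. Capitals mark the motif matches, where ATTGG is CCAAT read on the other strand, and each runs 5′ to 3′ on the gene's own strand.
Hmgcs1, chr13:119690102-119690322, plus strand: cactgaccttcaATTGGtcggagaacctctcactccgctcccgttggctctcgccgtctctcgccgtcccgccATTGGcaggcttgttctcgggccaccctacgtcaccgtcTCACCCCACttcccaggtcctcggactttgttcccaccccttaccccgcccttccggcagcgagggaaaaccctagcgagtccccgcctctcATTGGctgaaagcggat
Insig1, chr5:28071184-28071328, plus strand: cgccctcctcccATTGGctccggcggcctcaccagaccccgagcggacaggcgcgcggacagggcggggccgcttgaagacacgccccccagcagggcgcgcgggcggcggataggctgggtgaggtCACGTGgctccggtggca
Tm7sf2, chr19:6067881-6067909, minus strand: ctcccagcgctgATTGGctactgtgctgg
Nsdhl, chrX:72918400-72918517, plus strand: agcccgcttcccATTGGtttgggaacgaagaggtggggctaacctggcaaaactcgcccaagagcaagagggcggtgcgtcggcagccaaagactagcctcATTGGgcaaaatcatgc

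The route was expressed throughout in DRG. Levels are given as CPM, the coverage-scaled values relative to each library's normalized total, which are already per transcript length and can be set side by side between genes. The highest 12-library means were those of Scd2 (588.2 CPM), a stearoyl-CoA desaturase of brain and nerve, Hmgcs1 (582.4 CPM), which makes HMG-CoA, Scd1 (509.0 CPM), its desaturase paralog, and Fdps (424.8 CPM), which makes farnesyl diphosphate. Msmo1 (306.5 CPM), which oxidises sterol methyl groups, and Sqle (256.9 CPM), the squalene epoxidase, followed. The lowest were Lss (21.2 CPM), which closes squalene epoxide into lanosterol, and Ebp (22.4 CPM), a sterol isomerase. Reads of Scd1 and Scd2 can be shared because the genes are close paralogs.

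**Figure D1:**
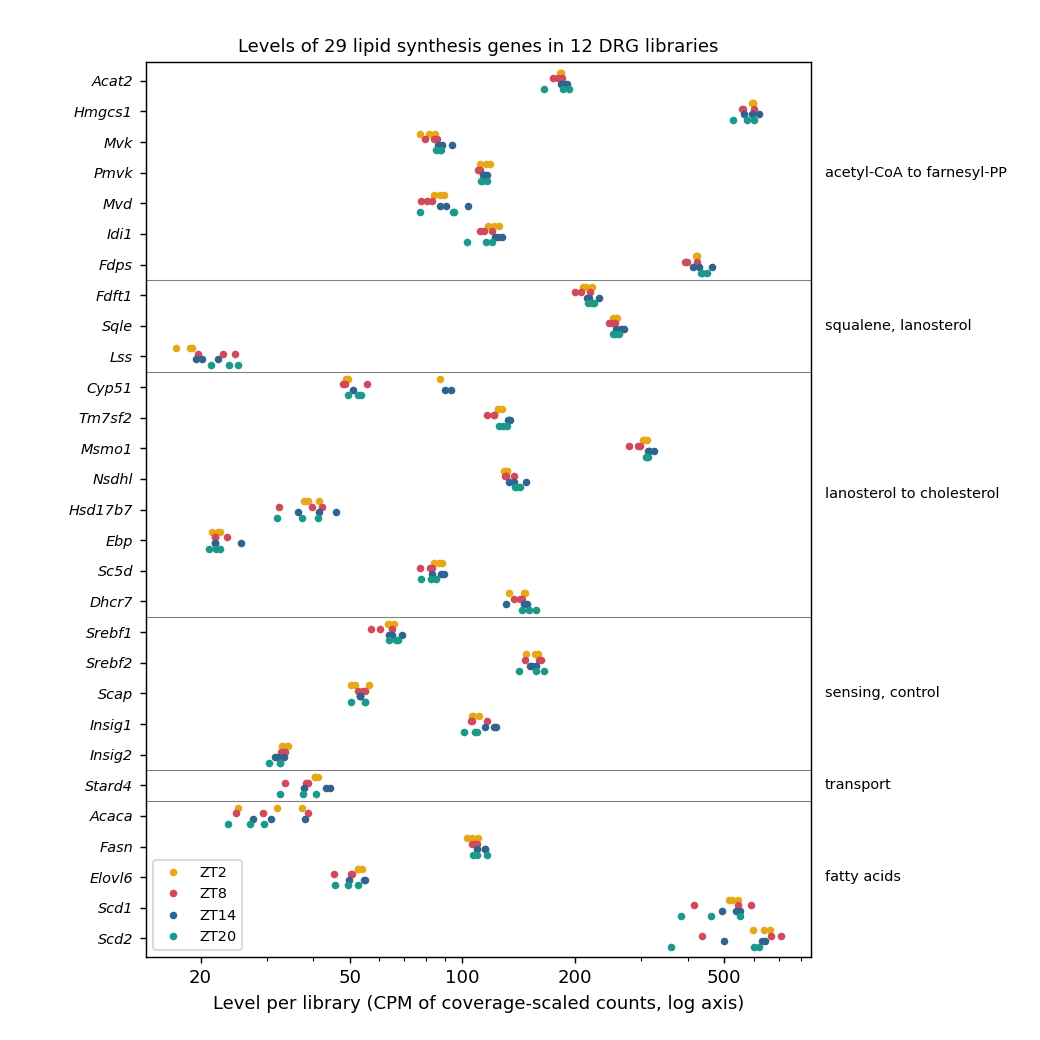
Level of each of the 29 genes in each of the 12 DRG libraries (points, CPM, log axis), grouped by pathway role and coloured by zeitgeber time (3 libraries each). The genes span means of 21.2 CPM (Lss) to 588.2 CPM (Scd2), and for most of them the 4 times lie on top of each other.

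Time of day moved these levels little. The 18 cholesterol enzymes summed to 3010 ± 21.6 CPM at ZT2, 2904 ± 44.8 CPM at ZT8, 3102 ± 53.8 CPM at ZT14 and 3012 ± 94.98 CPM at ZT20 (SD, n = 3 each). The 3 sums at ZT14 ran between 3064 and 3164 CPM and the 3 at ZT8 between 2854 and 2940 CPM, so those groups did not overlap. That pair of times was picked out after the sums were seen and was not tested. By library, 14, 14 and 11 of the 18 enzymes stood above their own 12-library median at ZT14, and 5, 2 and 5 of them at ZT8. The counts were 9, 7 and 8 at ZT2 and 7, 15 and 11 at ZT20, so the highest count was in a ZT20 library.

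No gene of the module passed any of the 5 tests of edgeR's quasi-likelihood model at an adjusted p under 0.05. For any difference between the 4 times, 0 of 29 passed against 0.0504% of all genes, and 4 had an unadjusted p under 0.05 against 6.19%. For a 24-h component, 0 passed against 0.0659%, and 5 had an unadjusted p under 0.05 against 5.2%. For ZT14 against ZT2, 0 passed against 0.0465%, with 4 at an unadjusted p under 0.05 against 5.19%. For ZT20 against ZT8, 0 passed against 0.0232%, with 4 at an unadjusted p under 0.05 against 5.28%. For ZT14 and ZT20 together against ZT2 and ZT8 together, 0 passed against 0% of all genes, with 6 at an unadjusted p under 0.05 against 5.46%. All 6 of these were higher at the later pair of times, a direction in which 2.95% of all genes had such a p.

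The lowest edgeR adjusted p of any member ranged from 0.477 in the any-time test to 0.845 for ZT20 against ZT8. Limma-trend called 0 members in all 5 tests, where it called 0.0736% of all genes in the any-time test, 0.0659% in the 24-h test, 0.062% for ZT14 against ZT2, 0.0232% for ZT20 against ZT8 and 0.00775% for the later against the earlier pair of times. DESeq2, which calls more genes in this table, called Tm7sf2 and Msmo1 in the any-time test, where 1.13% of all genes passed (DESeq2 adjusted p = 0.00126 and 0.0323). It called Tm7sf2 in the 24-h test, where 0.628% of genes passed, and for the later against the earlier pair of times, where 0.294% did (DESeq2 adjusted p = 0.0195 and 0.0110). For the single pairs of opposite times DESeq2 called 0 members: ZT14 against ZT2 (0.411% of all genes passed) and ZT20 against ZT8 (0.263%). Some core clock genes passed in the same libraries. Arntl, the clock activator, had a log2 fold change of -1.24 ± 0.11 (SE) for ZT14 against ZT2, an edgeR adjusted p of 0.00186. Nr1d1 did not pass there (-0.02 ± 0.18) but did for ZT20 against ZT8 (-1.86 ± 0.19, edgeR adjusted p = 0.00843). The largest member value for ZT14 against ZT2 was 0.33, so these genes do not show whether changes of the members' size would pass.

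The intervals bound how large a difference could have gone unseen. For ZT14 against ZT2, the 95% interval of the log2 fold change lay within ±0.3 (1.23-fold) for 24 of 29 genes, the exceptions being Lss, Cyp51, Hsd17b7, Acaca and Scd2. For ZT20 against ZT8 it lay within ±0.3 for 23 genes, the exceptions being Mvd, Cyp51, Hsd17b7, Acaca, Scd1 and Scd2. For the later against the earlier pair of times, 26 genes lay within it and Cyp51, Acaca and Scd2 did not. The fitted 24-h amplitude on the log2 scale had a median of 0.05 over the members, between 0.00 for Elovl6 and 0.17 for Cyp51, against 0.10 over all genes tested and 0.04 over the 6661 genes at or above the mean level of the lowest member. The coefficient of variation between libraries of 1 time had a median of 4.36% over the members, against 13.5% over all genes and 5.10% over those 6661.

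**Figure D2:**
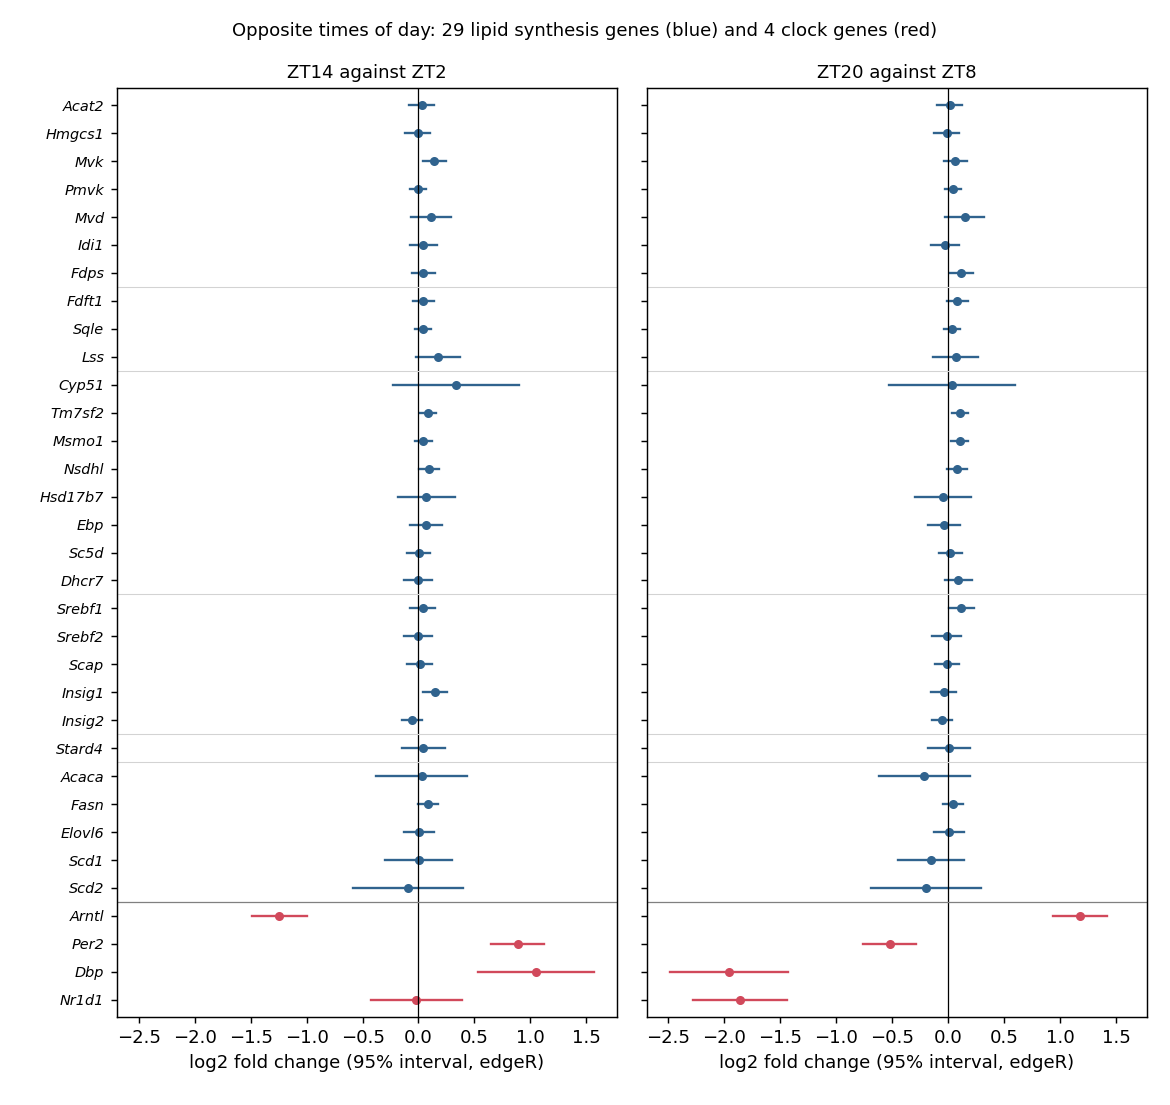
Log2 fold change (x axis, points) with its 95% interval (lines) from edgeR for ZT14 against ZT2 (left) and ZT20 against ZT8 (right), for the 29 genes in blue and 4 clock genes in red, 3 libraries per time. Most blue intervals lie within ±0.3, while Arntl stands at -1.24 on the left and 1.18 on the right.

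Most differences were above 0 and small. For ZT14 against ZT2, 23 of 29 members had a log2 fold change above 0, with a median of 0.042, while 49.9% of all genes were above 0. For ZT20 against ZT8, 18 of 29 were above 0, with a median of 0.019, against 50.4% of all genes, and leaving out ZT8 replicate 3 gave a median of -0.016. Leaving out ZT20 replicate 2 gave -0.010, and leaving out ZT20 replicate 1 gave 0.056. For the later against the earlier pair of times, 22 of 29 were above 0, with a median of 0.025, against 50.2%. Without ZT20 replicate 2 that count was 16 and the median 0.0075, and without ZT20 replicate 1 they were 25 and 0.054. With the adipocyte marker score as a covariate the medians of the 3 contrasts, in the order above, were 0.074, 0.036 and 0.056, and with the myelinating Schwann cell score they were 0.053, 0.048 and 0.049. Among the 18 cholesterol enzymes the counts above 0 were 15, 14 and 17 in the same order. Sums of this kind count genes measured in the same libraries, and members are not replicates.

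The members whose 3 libraries at ZT14 all lay above the 3 at ZT2 were Tm7sf2, Nsdhl, Msmo1, Lss, Mvk and Insig1, 6 of 29, where 5.79% of all genes did so. In the opposite direction there were 0, against 5.38% of all genes. Between ZT20 and ZT8, the libraries were apart and higher at ZT20 for 5 members (Tm7sf2, Pmvk, Nsdhl, Msmo1 and Fdps), against 5.35% of all genes. Insig2 was apart and lower at ZT20, 1 member against 4.54%. Over both pairs at once, 0 members had all 6 later libraries above, or all 6 below, the 6 earlier ones, against 0.163% and 0.12% of all genes.

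In the first stretch of the route, acetyl-CoA to farnesyl diphosphate, 5 of 7 genes were above 0 for ZT14 against ZT2. Hmgcs1 had 598.0, 595.7 and 592.7 CPM at ZT2, 601.2, 561.1 and 558.7 CPM at ZT8, 565.4, 620.8 and 591.4 CPM at ZT14, and 528.1, 576.2 and 599.7 CPM at ZT20. All 4 times overlapped, and its log2 fold change for ZT14 against ZT2 was -0.01 ± 0.05 (SE). The gene lies on chromosome 13 at 119690379 to 119708260, plus strand, in GRCm38.

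Mvk, the kinase that phosphorylates mevalonate, had 81.4, 76.9 and 84.4 CPM at ZT2, 84.1, 79.3 and 85.3 CPM at ZT8, 94.01, 85.8 and 88.05 CPM at ZT14, and 86.9, 85.1 and 87.6 CPM at ZT20. The ZT14 libraries lay above those of ZT2, and ZT20 overlapped ZT8. The log2 fold change was 0.14 ± 0.05 (SE) for ZT14 against ZT2 (edgeR adjusted p = 0.790) and 0.06 ± 0.05 for ZT20 against ZT8.

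Mvd, which decarboxylates mevalonate diphosphate, had 84.0, 89.4 and 87.3 CPM at ZT2, 82.9, 77.6 and 80.2 CPM at ZT8, 103.4, 90.3 and 87.3 CPM at ZT14, and 77.3, 94.9 and 94.1 CPM at ZT20. Its highest library was at ZT14 and its lowest at ZT20, so the later times held both ends of the range. The log2 fold change for the later against the earlier pair of times was 0.13 ± 0.06 (SE; edgeR adjusted p = 0.870).

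Fdps had 421.6, 421.9 and 421.1 CPM at ZT2, 391.9, 398.6 and 423.4 CPM at ZT8, 464.0, 412.3 and 426.9 CPM at ZT14, and 432.5, 448.3 and 435.7 CPM at ZT20. All 3 libraries at ZT20 lay above those at ZT8, with a log2 fold change of 0.12 ± 0.05 (SE; edgeR adjusted p = 0.935). Its exons share 1124 bases with Gm43738 on the same strand, so the counting may have split reads between the rows. The Gm43738 row had a mean of 5.48 CPM but ran between 0.816 and 12.9 CPM. Within ZT2 alone it had 0.988, 11.0 and 0.957 CPM. Acat2, which joins acetyl-CoA units, Pmvk, the next kinase, and Idi1, the isopentenyl diphosphate isomerase, had log2 fold changes of 0.03, -0.00 and 0.04 for ZT14 against ZT2.

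All 3 genes of squalene and lanosterol synthesis were above 0 in both pairs of opposite times, and none passed. Lss had 18.97, 17.2 and 18.7 CPM at ZT2, 24.7, 22.9 and 19.6 CPM at ZT8, 20.2, 22.3 and 19.4 CPM at ZT14, and 21.4, 25.2 and 23.8 CPM at ZT20. ZT2 held the 3 lowest libraries, and the other times overlapped. Its log2 fold change for ZT14 against ZT2 was 0.17 ± 0.09 (SE; edgeR adjusted p = 1), and its any-time adjusted p in edgeR was 0.634. Lss shares 381 exon bases with an antisense gene, 4930483K19Rik.

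Sqle had 257.6, 253.0 and 258.8 CPM at ZT2, 256.0, 245.5 and 250.4 CPM at ZT8, 269.6, 265.1 and 257.8 CPM at ZT14, and 251.7, 261.1 and 255.8 CPM at ZT20. It was among the steadiest members, with its highest library 1.10 times its lowest. Fdft1, the squalene synthase, ranged between 199.5 and 231.3 CPM, and shares 774 exon bases with Ctsb on the opposite strand.

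Of the late enzymes from lanosterol to cholesterol, Tm7sf2 had the lowest adjusted p of any member in each edgeR test except ZT14 against ZT2. There Insig1 had it (edgeR adjusted p = 0.778). Tm7sf2, a sterol C14 reductase of chromosome 19 (6062821 to 6068373, minus strand, GRCm38), had 127.8, 124.8 and 124.6 CPM at ZT2, 121.2, 116.5 and 121.4 CPM at ZT8, 132.7, 134.0 and 132.7 CPM at ZT14, and 125.2, 131.7 and 128.2 CPM at ZT20. ZT8 held its 3 lowest libraries and ZT14 its 3 highest. The log2 fold change was 0.08 ± 0.03 (SE) for ZT14 against ZT2, 0.10 ± 0.03 for ZT20 against ZT8 and 0.09 ± 0.02 for the later against the earlier pair of times (edgeR adjusted p = 0.580). The fitted 24-h component had an amplitude of 0.07 ± 0.02 and a peak at 17.4 ± 0.95 h (SE; edgeR adjusted p = 0.651). Tm7sf2 shares 532 exon bases with Vps51 on the same strand, and Vps51, at 54.5 CPM, had a log2 fold change of 0.09 ± 0.06 for ZT14 against ZT2 and of 0.02 ± 0.06 for ZT20 against ZT8.

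Msmo1 had 307.4, 311.7 and 303.8 CPM at ZT2, 294.2, 278.3 and 298.2 CPM at ZT8, 324.7, 314.0 and 312.3 CPM at ZT14, and 309.4, 311.0 and 313.2 CPM at ZT20. As with Tm7sf2, its 3 lowest libraries were those of ZT8, and the 3 of ZT14 lay above the 3 of ZT2. The log2 fold change was 0.04 ± 0.03 (SE) for ZT14 against ZT2 and was 0.10 ± 0.03 for ZT20 against ZT8 (edgeR adjusted p = 1 and 0.877).

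Nsdhl, the X-linked sterol dehydrogenase that works with Msmo1, had 131.8, 131.7 and 129.4 CPM at ZT2, 130.3, 130.6 and 137.0 CPM at ZT8, 147.6, 137.5 and 133.4 CPM at ZT14, and 137.9, 142.2 and 139.9 CPM at ZT20. Later libraries lay above their opposite earlier ones in both pairs. The log2 fold change was 0.09 ± 0.04 (SE) for ZT14 against ZT2 and was 0.08 ± 0.04 for ZT20 against ZT8 (edgeR adjusted p = 0.949 and 0.950).

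Cyp51, the lanosterol demethylase, stood at separate levels that did not follow the times. It had 48.9, 49.6 and 87.0 CPM at ZT2, 48.5, 47.9 and 55.7 CPM at ZT8, 93.2, 51.0 and 89.6 CPM at ZT14, and 52.8, 53.6 and 49.5 CPM at ZT20. The 3 high libraries, 1 at ZT2 and 2 at ZT14, stood between 87.0 and 93.2 CPM, and the other 9 between 47.9 and 55.7 CPM. Its log2 fold change for ZT14 against ZT2 was 0.33 ± 0.25 (SE), with a 95% interval of -0.23 to 0.90. Akap9, which shares 166 exon bases with it on the opposite strand, had 8.6, 7.2 and 8.5 CPM in the 3 high libraries and 6.7 to 8.1 CPM in the other 9.

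**Figure D3:**
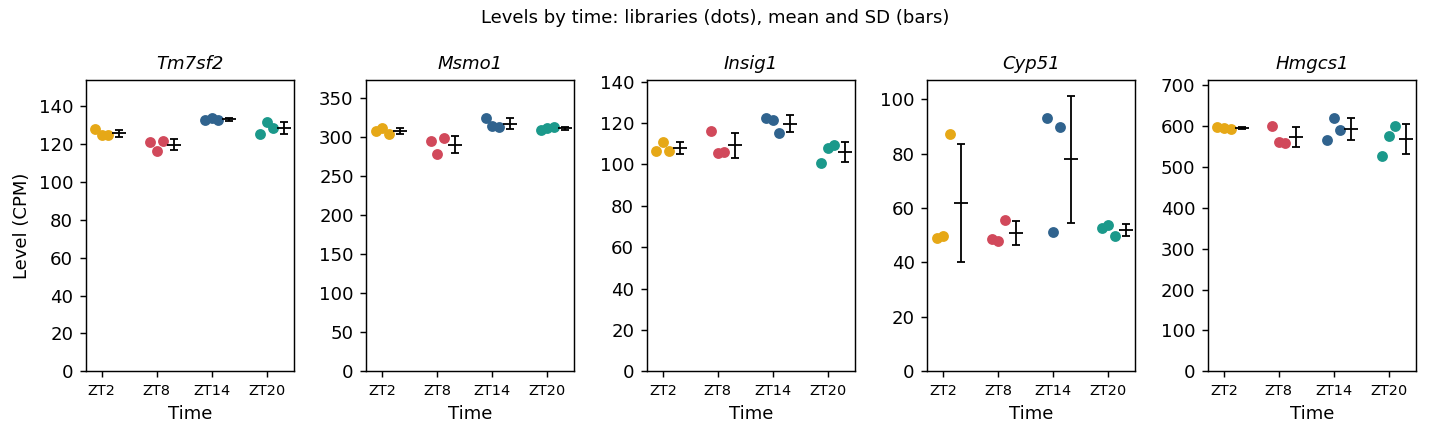
Level in CPM (y axis, from 0) by zeitgeber time for Tm7sf2, Msmo1, Insig1, Cyp51 and Hmgcs1; dots are libraries, bars the mean and SD of 3. Tm7sf2 runs only between 116.5 and 134.0 CPM, Insig1 is highest at ZT14 (119.7 CPM), and Cyp51 splits into 3 libraries at 87.0 to 93.2 CPM and 9 at 47.9 to 55.7 CPM.

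Of the remaining late enzymes, Hsd17b7, a ketosteroid reductase, ranged between 32.1 and 45.9 CPM, Ebp between 21.1 and 25.6 CPM, Sc5d, a sterol desaturase, between 77.1 and 89.0 CPM, and Dhcr7, a reductase of the final steps, between 130.8 and 156.8 CPM. Their log2 fold changes for ZT14 against ZT2 lay between -0.01 for Dhcr7 and 0.07 for Hsd17b7. For ZT20 against ZT8 they lay between -0.05 for Hsd17b7 and 0.09 for Dhcr7.

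Among the sensing and control genes, Insig1 showed the clearest single-time value. Insig1 is itself a target of SREBP whose product holds SCAP back, and it lies on chromosome 5 at 28071363 to 28078662, plus strand, in GRCm38. It had 106.4, 111.0 and 106.3 CPM at ZT2, 116.4, 105.4 and 105.8 CPM at ZT8, 122.6, 121.4 and 115.1 CPM at ZT14, and 100.7, 107.8 and 109.5 CPM at ZT20. The 3 libraries of ZT14 lay above those of ZT2 and ZT20, and 1 library of ZT8 (116.4 CPM) reached into their range. The log2 fold change was 0.15 ± 0.05 (SE) for ZT14 against ZT2 (edgeR adjusted p = 0.778) and -0.04 ± 0.05 for ZT20 against ZT8.

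Insig2, its paralog, had 34.3, 33.9 and 33.1 CPM at ZT2, 33.2, 33.5 and 32.9 CPM at ZT8, 31.5, 33.3 and 32.2 CPM at ZT14, and 32.6, 30.5 and 32.5 CPM at ZT20. Its log2 fold change was -0.06 ± 0.04 (SE) in both pairs of opposite times (edgeR adjusted p = 1 and 0.954), and it was the only member whose 3 ZT20 libraries all lay below those of ZT8. Srebf1, whose main liver product drives fatty acid genes, had 63.4, 63.5 and 65.8 CPM at ZT2, 65.0, 57.1 and 60.1 CPM at ZT8, 69.0, 63.7 and 65.1 CPM at ZT14, and 66.7, 63.7 and 67.3 CPM at ZT20. ZT20 and ZT8 overlapped, with a log2 fold change of 0.12 ± 0.05 (SE; edgeR adjusted p = 0.936), and 109 of its exon bases lie opposite Rai1. The isoforms of Srebf1 are not separated in these values.

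Srebf2, the factor that mainly drives cholesterol genes, had 156.5, 147.7 and 159.6 CPM at ZT2, 159.9, 161.7 and 147.0 CPM at ZT8, 153.8, 157.6 and 151.3 CPM at ZT14, and 141.7, 165.2 and 157.2 CPM at ZT20. Its lowest and highest libraries were both at ZT20. The 95% interval of its log2 fold change was -0.13 to 0.12 for ZT14 against ZT2 and was -0.14 to 0.11 for ZT20 against ZT8. Scap ranged between 50.4 and 56.4 CPM, and all 3 of its ZT14 libraries were between 53.2 and 53.3 CPM.

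Stard4, a soluble carrier of cholesterol that is also an SREBP target, had 40.3, 40.5 and 41.1 CPM at ZT2, 38.7, 38.2 and 33.5 CPM at ZT8, 37.9, 44.4 and 43.3 CPM at ZT14, and 32.6, 40.8 and 37.6 CPM at ZT20. The 3 libraries of ZT2 all lay above the 3 of ZT8, while ZT14 overlapped ZT2 and ZT20 overlapped ZT8. Stard4 had a log2 fold change of 0.04 ± 0.09 (SE) for ZT14 against ZT2 and one of 0.01 ± 0.09 for ZT20 against ZT8.

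The fatty acid enzymes varied more between libraries of the same time than the sterol enzymes did, with a median coefficient of variation of 12.6% over 5 genes against 4.14% over the 18. They summed to 1350 ± 47.3 CPM at ZT2, 1308 ± 248.6 CPM at ZT8, 1316 ± 113.8 CPM at ZT14 and 1178 ± 228.1 CPM at ZT20 (SD, n = 3 each). Scd2 had 660.9, 595.8 and 638.7 CPM at ZT2, 668.3, 708.4 and 435.1 CPM at ZT8, 499.7, 630.7 and 641.8 CPM at ZT14, and 360.2, 601.8 and 617.2 CPM at ZT20. Its low libraries were ZT8 replicate 3, ZT14 replicate 1 and ZT20 replicate 1, which are 3 of the 4 with the highest levels of skeletal muscle markers. Its log2 fold change was -0.10 ± 0.22 (SE) for ZT14 against ZT2 and was -0.20 ± 0.22 for ZT20 against ZT8.

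Scd1 was lowest in ZT20 replicate 1 (383.1 CPM) and highest in ZT8 replicate 2 (590.6 CPM), the same libraries as Scd2. Acaca, the acetyl-CoA carboxylase that commits carbon to fatty acids, had its lowest and highest values there too, 23.7 and 38.7 CPM. Fasn, the fatty acid synthase, was steadier, between 103.1 and 116.1 CPM, with a log2 fold change of 0.08 ± 0.04 (SE) for ZT14 against ZT2 (edgeR adjusted p = 0.987). Elovl6, which elongates palmitate, ranged between 45.5 and 54.9 CPM.

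**Figure D4:**
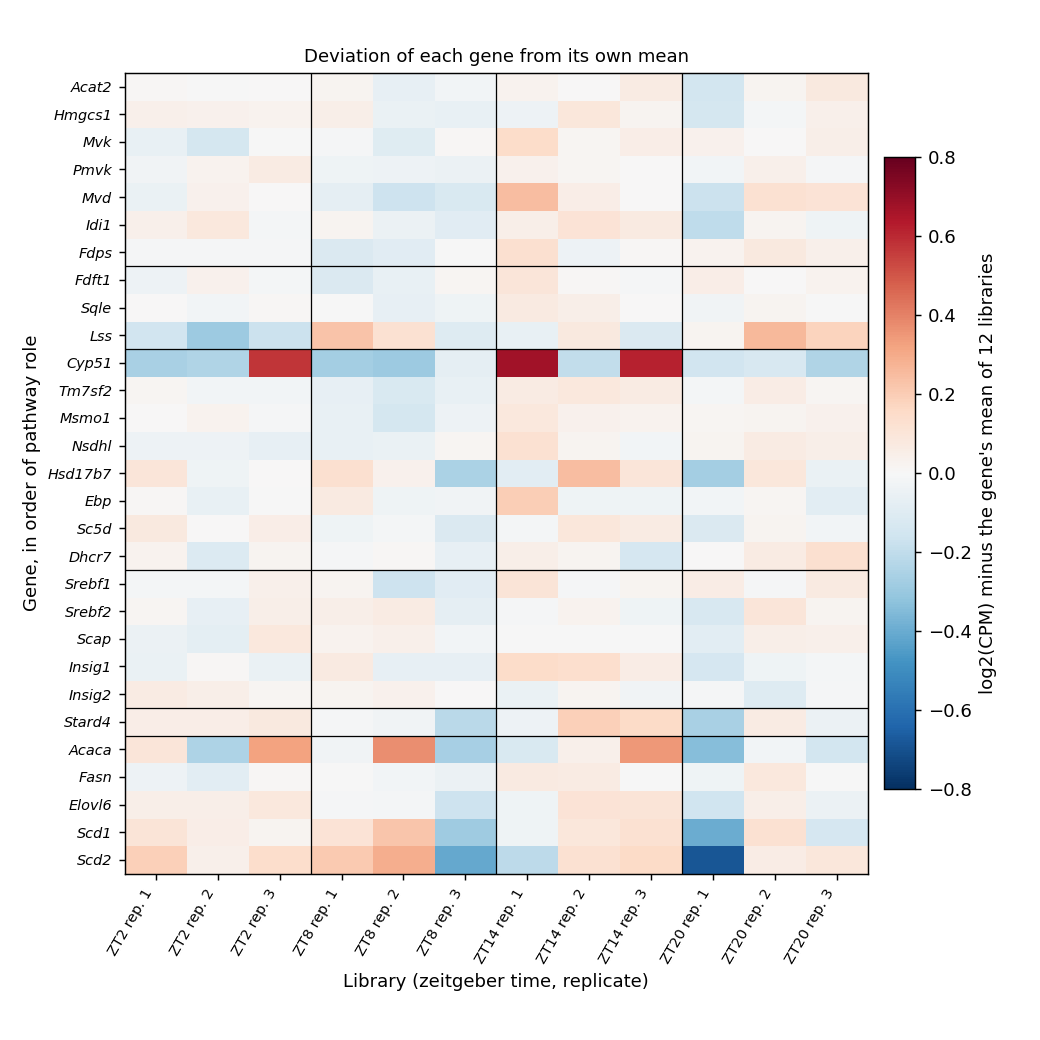
Log2 CPM of each gene in each library minus the gene's mean over the 12 libraries (colour, scale at right), genes in rows by pathway role and libraries in columns by zeitgeber time. The darkest cells are the 3 high libraries of Cyp51 and the low value of Scd2 in ZT20 replicate 1 (360.2 CPM), which is the lowest library for 12 of the 29 genes.

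Libraries differed in skeletal muscle and adipocyte markers, and these moved with several members. The 12 skeletal muscle markers were all detected in every library. They summed to 235.3 to 577.7 CPM at ZT2, 256.7 to 593.7 CPM at ZT8, 305.3 to 658.4 CPM at ZT14 and 194.0 to 1241 CPM at ZT20. The highest sum was in ZT20 replicate 1. One listed marker, Pvalb, stood between 152.1 and 243.6 CPM and made up most of the lowest sum (164.4 of 194.0 CPM, ZT20 replicate 2). In that library Acta1 and Ckm stood at 7.56 and 1.80 CPM, against 289.9 and 78.6 CPM in ZT20 replicate 1. Pvalb can therefore not be read as muscle RNA alone, although it stayed in the sums, the score and the slopes. With Pvalb in them, the sums understate how far the other markers varied. The 11 adipocyte markers tested of 12 summed to 21.0 to 39.9 CPM at ZT2, 23.0 to 36.9 CPM at ZT8, 33.9 to 64.7 CPM at ZT14 and 26.1 to 73.7 CPM at ZT20, and none was at 0 in any library. The mean log2 CPM of the sensory neuron markers stayed between 10.1 and 10.2. The 12 myelinating Schwann cell markers summed to 7029 to 7712 CPM at ZT2, 6313 to 8039 CPM at ZT8, 7574 to 7653 CPM at ZT14 and 7711 to 8898 CPM at ZT20. With the Schwann cell score as a covariate in edgeR, some members had an unadjusted p under 0.05. They numbered 3 for ZT14 against ZT2, 1 for ZT20 against ZT8 and 3 for the later against the earlier pair of times. Of all 25809 genes, 1341, 979 and 1137 had such a p. With the muscle score as covariate the members numbered 6, 5 and 10, against 1631, 2121 and 2075 of all genes. With the adipocyte score they numbered 7, 3 and 7, against 2050, 1541 and 1441. The satellite glia score, a mean log2 CPM over 8 markers, was 5.44 to 5.49 in the 3 libraries of ZT2. In the other 9 it was 5.16 to 5.39, and its part in the differences from ZT2 was not tested. One of the 8 markers, Fabp7, itself differed between ZT14 and ZT2 (log2 fold change -1.42 ± 0.08, SE; edgeR adjusted p = 2.92e-05). Another, Glul, went the other way (0.17 ± 0.04), so the score cannot be read as glial content alone. ZT20 replicate 1 was the lowest library for 12 members, and ZT14 replicate 1, with the next highest muscle score, was the highest for 11.

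With time of day in the edgeR model, 5 members fell with the muscle score, the mean log2 CPM of its 12 markers, where 1.66% of all genes fell and 2.55% were called in either direction. The slopes were -0.19 for Scd2, -0.12 for Scd1, -0.08 for Stard4, -0.05 for Srebf2 and -0.05 for Elovl6 in log2 CPM per unit of the score (edgeR adjusted p = 0.0454, 0.0440, 0.0288, 0.0365 and 0.0380). On the adipocyte score, 3 members fell (Stard4, Scd2 and Elovl6; edgeR adjusted p = 0.0336, 0.0230 and 0.0430), where 2.61% of all genes fell and 3.84% were called in either direction. On the myelinating Schwann cell score 0 genes passed in edgeR, so not even its own 12 markers did. That fit cannot decide whether members moved with the score, which ran only from 6.83 (ZT8 replicate 2) to 7.20. On it the median member slope was -0.13 over all 12 libraries, with 18 members below 0. Without ZT8 replicate 2 the median was -0.93, with 27 members below 0. These slopes were chosen after seeing the data, and they rest on few libraries: over the 12 fits without 1 library the count was 0 to 6 on the muscle score and 0 to 5 on the adipocyte score. On the muscle score it was 0 without any single library of ZT8, ZT14 replicate 2, ZT20 replicate 1 or ZT20 replicate 2, 1 without ZT2 replicate 2 or ZT14 replicate 1, 2 without ZT14 replicate 3 and 3 without ZT20 replicate 3. On the adipocyte score, leaving out replicate 1 of ZT14 or of ZT20, or replicate 2 or 3 of ZT8, gave 0 members. In that order, 0.263%, 0.00742%, 0.0148% and 0% of all genes were called. Leaving out ZT8 replicate 1 or ZT14 replicate 2 or 3 gave 1, and leaving out ZT2 replicate 1 gave 5. Without ZT20 replicate 1 the slopes on the muscle score were -0.15 for Scd2 and -0.12 for Scd1. The part of muscle or fat RNA in these values was not tested.

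**Figure D5:**
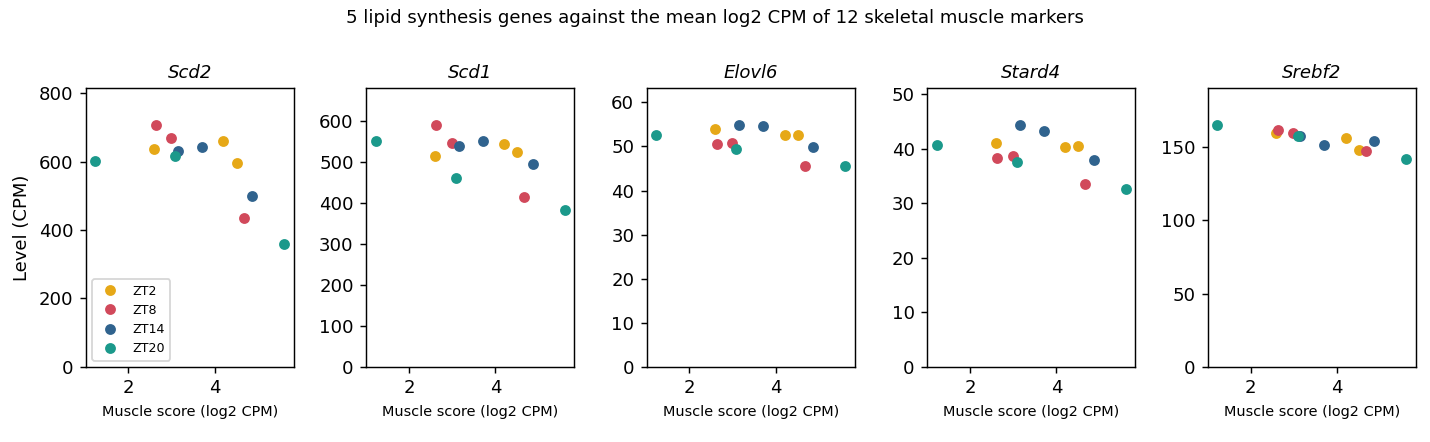
Level in CPM (y axis, from 0) of Scd2, Scd1, Elovl6, Stard4 and Srebf2 against the mean log2 CPM of 12 skeletal muscle markers (x axis), 1 point per library, coloured by zeitgeber time. ZT20 replicate 1 is the point farthest right, at a score of 5.60, and holds the lowest values of Scd2 (360.2 CPM), Scd1 (383.1 CPM), Stard4 (32.6 CPM) and Srebf2 (141.7 CPM).

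Around the module, 0 of 28 genes of fatty acid supply, elongation and desaturation passed any of the 5 edgeR tests, and 6 had an unadjusted any-time p under 0.05 against 6.19% of all genes. Limma-trend called 0 of the 28, and DESeq2 called Elovl1 in the any-time test, the 24-h test and for the later against the earlier pair of times (DESeq2 adjusted p = 0.0351, 0.0377 and 0.0358), where it called 1.13%, 0.628% and 0.294% of all genes. Elovl1, which extends very long saturated chains used in sphingolipids, had 109.2 ± 6.99 CPM at ZT2, 110.1 ± 13.0 CPM at ZT8, 133.6 ± 5.03 CPM at ZT14 and 122.2 ± 3.70 CPM at ZT20 (SD, n = 3 each). Its log2 fold change was 0.29 ± 0.08 (SE) for ZT14 against ZT2 (edgeR adjusted p = 0.522) and 0.15 ± 0.08 for ZT20 against ZT8. Acacb, the acetyl-CoA carboxylase of the mitochondrial surface, averaged 3.97 ± 1.05 CPM at ZT14 and 2.58 ± 0.21 CPM at ZT2 (SD, n = 3 each), a log2 fold change of 0.62 ± 0.17 (SE; edgeR adjusted p = 0.616). For the same pair of times the log2 fold change was 0.24 ± 0.09 for Thrsp, a lipogenic protein of liver and fat, and 0.13 ± 0.05 for Acsl3, an acyl-CoA ligase of lipid droplets. Me1 and Elovl5, also among the 6, did not rise in this way (0.01 ± 0.04 and -0.03 ± 0.04).

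None of the 11 genes of SREBP processing and partners, such as the site proteases and NF-Y subunits, passed in edgeR in any of the 5 tests, and 0 had an unadjusted any-time p under 0.05. The same held for the 15 genes of cholesterol use, storage and export, among them the exporters Abca1 and Abcg1. Limma-trend and DESeq2 called 0 genes of either list.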

How the data were processed

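Poly(A) RNA of lumbar DRG was sequenced as paired reads, per the labels' protocols. HISAT2 2.2.1, StringTie 2.1.5 and GRCm38.p6 are named in the submitters' processing notes. Not given in the sources used here is how the table was made from them, or with which annotation and strand setting. The values deposited by the authors are estimated counts that are not whole. A value of 16.4 to 17.2 per library recurs in genes of very different length, as coverage of 1 would, so they scale with coverage per transcript length and their totals, 89623413 to 124730176, are not read numbers. The approximate reads behind them number 47941162 to 67072036 per library, which limits the precision.

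The table's 348 assembled loci without an Ensembl gene (0.203% to 0.231% of each total) were left out, and 79 symbols occur on several IDs. Values were rounded, filtered with filterByExpr, normalized by TMM and fitted with edgeR 4.0.16 (quasi-likelihood, robust, 4 times of 3 libraries, R 4.3.3), with Benjamini-Hochberg adjustment over all 25809 genes. The 24-h component is the cosine and sine contrast of the 4 means, which 4 times fit without a check of shape. Limma-trend (limma 3.58.1), DESeq2 1.42.0, other normalizations and filters, adipocyte, muscle and Schwann cell scores as covariates, a replicate block, approximate reads and leaving out each library were alternatives. The procedure was tested on simulated data. The members, lists, tests and named genes were chosen with earlier results of these data known. Named genes were all 29 members, with values per library where an unadjusted p was under 0.05 or the level was the highest of a role. Cyp51 and Insig2 were also given per library, chosen after their values were seen. From the other lists, up to 4 genes with an unadjusted any-time p under 0.05 were named. Me1 and Elovl5 were added to them after their values were seen. Replicate numbers were not taken as pairs in the main fit: residuals of libraries with the same number correlated between -0.065 and 0.078.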

Additional observations from a re-analysis of the deposited data

How the results depend on the processing

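With limma-trend 0 of 29 genes passed each of the 5 tests, and with edgeR 0 passed each of them under RLE and upper-quartile normalization, no filter or a stricter one, approximate reads, the adipocyte, skeletal muscle or myelinating Schwann cell score as a covariate, the replicate block and the 12 fits without 1 library. The fits of only ZT14 and ZT2, or only ZT20 and ZT8, gave 0 in the 1 test each allows. DESeq2 called 2 genes in the any-time test, 1 in the 24-h test and 1 for ZT14 and ZT20 against ZT2 and ZT8; the cause was not tested. The replicate block gave 0 genes in all 5 tests and medians of 0.041, 0.018 and 0.021 for the 3 contrasts. Of all 12 libraries, 3 correlated best with their own number, and these 3 were all of replicate 2. Without 1 library the median log2 fold change ranged between -0.016 (without ZT8 replicate 3) and 0.056 (without ZT20 replicate 1) for ZT20 against ZT8, between 0.030 and 0.049 for ZT14 against ZT2, and between 0.0075 and 0.054 for the later against the earlier pair of times. The count of members with a slope was 0 to 6 on the muscle score, where 0.0668% to 2.50% of all genes were called. On the adipocyte score it was 0 to 5, where 0% to 5.02% of all genes were called. Of 997 alternative values of single genes over 43 results, 995 kept their direction and their side of the threshold, 2 (both Tm7sf2 in DESeq2) passed it and 0 reversed. The spread between 3 libraries per time limits these tests.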
